A study of Mus musculus with 3 samples.

Results

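The Krüppel-like factors (KLF) examined here are 8 zinc finger transcription factor genes, Klf1, Klf2, Klf3, Klf4, Klf6, Klf9, Klf10 and Klf13, taken by name from a RefSeq gene table among 21523 protein-coding genes of the autosomes and chromosome X. Klf1, Klf3 and Klf13, known for their roles in red cell precursors, formed the erythroid group of 3 genes, and the remaining 5 formed the other group. The rule that picks them uses gene names and no measured value, but the choice was made with earlier results of these data known. Nucleosome positions had been mapped by digesting chromatin with micrococcal nuclease, which cuts the DNA between nucleosomes, and sequencing the DNA of single nucleosomes. The cells were erythroblasts, the nucleated precursors of red cells, from the livers of 6 mouse fetuses; they lacked Ter119, a surface protein of later erythroid stages, and were grown with serum, insulin and 2 U/ml erythropoietin, the hormone of red cell formation. All groups share this source and medium, and their descriptions differ by culture day only, from day 0 over day 1 to day 2. The sources used here do not give strain, sex or fetal age, or say whether the days share a culture. Each day is 1 library, so culture day cannot be told apart from library, digestion or sequencing depth. No test between days was possible, and every difference between days describes these libraries without a replicate check. Nucleosome lists hold no RNA levels, so the labelled cell type could not be checked against marker expression.

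KLF proteins bind GC-rich and CACCC-type DNA through zinc fingers at their carboxyl end, and their other parts recruit activators or repressors. In erythroid cells Klf1 activates the adult beta globin gene and many genes of heme synthesis and of the red cell membrane, and Klf3, itself a target of Klf1, recruits the CtBP corepressors and can occupy the same kind of site. A nucleosome over a promoter limits the access of many factors to DNA, and active start sites often lie in a gap between well placed nucleosomes.

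The promoter sequences that the start site results below turn on are printed first, as the 250 bases before the start site of each gene, read 5′ to 3′ along the gene, from RefSeq (build GRCm38.p6, the assembly that mm10 names). Of the 8 genes 7 matched an entry of the promoter table, and Klf10 did not. Klf1 is shown as the leading erythroid member, Klf3 and Klf6 because no position covered their motif matches on any day, Klf4 because its promoter was free of positions on day 0 only, and Klf13 as the remaining erythroid member. Capitals mark matches, on either strand, to the GATA words (AGATAA, or the same with T as its first letter, and both with G as the last letter), to the CACCC-type word CCNCNCCC, to the word CCAAT and to the TATA box word TATAAA. The windows are chr8:84901732-84901981 (plus strand) for Klf1, chr5:64803271-64803520 (plus) for Klf3, chr7:63938916-63939165 (minus) for Klf13, chr4:55532476-55532725 (minus) for Klf4 and chr13:5861239-5861488 (plus) for Klf6.
Klf1: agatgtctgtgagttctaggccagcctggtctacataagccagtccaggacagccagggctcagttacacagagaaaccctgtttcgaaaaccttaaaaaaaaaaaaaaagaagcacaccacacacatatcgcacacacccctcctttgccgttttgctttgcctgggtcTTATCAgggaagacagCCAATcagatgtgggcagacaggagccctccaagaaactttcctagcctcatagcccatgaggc
Klf3: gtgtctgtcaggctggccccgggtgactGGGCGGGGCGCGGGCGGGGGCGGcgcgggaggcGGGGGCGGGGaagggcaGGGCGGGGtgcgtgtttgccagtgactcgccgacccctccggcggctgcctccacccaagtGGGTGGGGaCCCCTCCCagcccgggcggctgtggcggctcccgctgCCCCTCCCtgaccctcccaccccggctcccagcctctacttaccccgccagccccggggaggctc
Klf13: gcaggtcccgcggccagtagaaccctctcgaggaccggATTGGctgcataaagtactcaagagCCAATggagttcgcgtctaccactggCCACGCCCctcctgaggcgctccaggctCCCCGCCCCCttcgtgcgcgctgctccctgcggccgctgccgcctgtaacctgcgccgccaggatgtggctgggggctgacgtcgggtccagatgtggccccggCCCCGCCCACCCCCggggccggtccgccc
Klf4: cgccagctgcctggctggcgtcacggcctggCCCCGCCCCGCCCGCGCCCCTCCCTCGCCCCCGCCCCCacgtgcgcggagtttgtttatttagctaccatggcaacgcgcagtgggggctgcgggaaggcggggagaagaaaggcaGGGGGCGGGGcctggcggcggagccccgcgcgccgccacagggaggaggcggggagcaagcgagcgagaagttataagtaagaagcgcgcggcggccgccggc
Klf6: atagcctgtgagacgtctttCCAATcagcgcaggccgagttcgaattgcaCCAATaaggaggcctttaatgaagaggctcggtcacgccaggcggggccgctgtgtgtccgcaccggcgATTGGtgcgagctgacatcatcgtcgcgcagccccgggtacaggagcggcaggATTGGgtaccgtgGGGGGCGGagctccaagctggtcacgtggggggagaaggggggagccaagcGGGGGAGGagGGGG

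The search covered these bases and the first 50 of each gene. The Klf1 promoter was the least GC-rich of the 7, at 51.3% GC with 3 CpG pairs, and the Klf3 promoter the most, at 76.7% with 29; the median over 10370 promoters whose entry starts a gene of the table was 54.0% and 10.0 CpG pairs. Klf1 held 1 GATA match, read as TTATCA at bases -80 to -75 (start site 0), and 1 CCAAT match at -64 to -60. It held no match to the CACCC-type word. The shorter string CACCC, which that word does not cover by itself, does occur in the printed Klf1 bases. Klf3 held 10 CACCC-type matches, Klf4 9, Klf13 5, Klf2 4, Klf6 3 and Klf9 0, many of them overlapping one another. Klf2 also had 1 GATA match, inside the gene, and Klf6, Klf9 and Klf13 had 4, 3 and 2 CCAAT matches. None of the 7 held TATAAA. Among the 10370 promoters 29.6% held a GATA word, 51.2% the CACCC-type word, 41.0% CCAAT and 17.1% TATAAA. A match is a string of letters and no evidence of binding.

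Position numbers were 3735952, 2999502 and 4474045 for days 0, 1 and 2. Every position spans 140 bp, and no centres lie closer than 100 bp. On the autosomes this was 1.54, 1.23 and 1.82 positions per kb, and the median summit value, the smoothed and scaled coverage at the centre, was 7.62, 6.80 and 6.26. Read totals per library are unknown here. Because the lists differ in length, levels are given as relative occupancy: the summit values in a window are added up, divided by its length and set against the same quantity over the autosomes of that library, so that 1 is the autosome mean. Intervals are exact 95% intervals for counted positions and cover counting error only, not the spread between cultures.

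Over the gene with 5 kb on each side, Klf1 had the highest relative occupancy of the 8 genes on every day, and Klf4, Klf6 and Klf9 the lowest 3. In all 8 genes day 1 was above day 0, and in 7 of 8 day 2 was below day 1. Most genes went the same way: 61.2% of all genes were higher on day 1 than on day 0, and only 39.4% were higher on day 2 than on day 1. The medians of the 8 genes were 2.47, 4.11 and 2.68 in day order, beside 1.77, 1.83 and 1.61 over all genes. The spread among the genes was narrowest on day 2: in day order, the highest level was 3.79, 3.30 and 1.97 times the lowest.

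**Figure D1:**
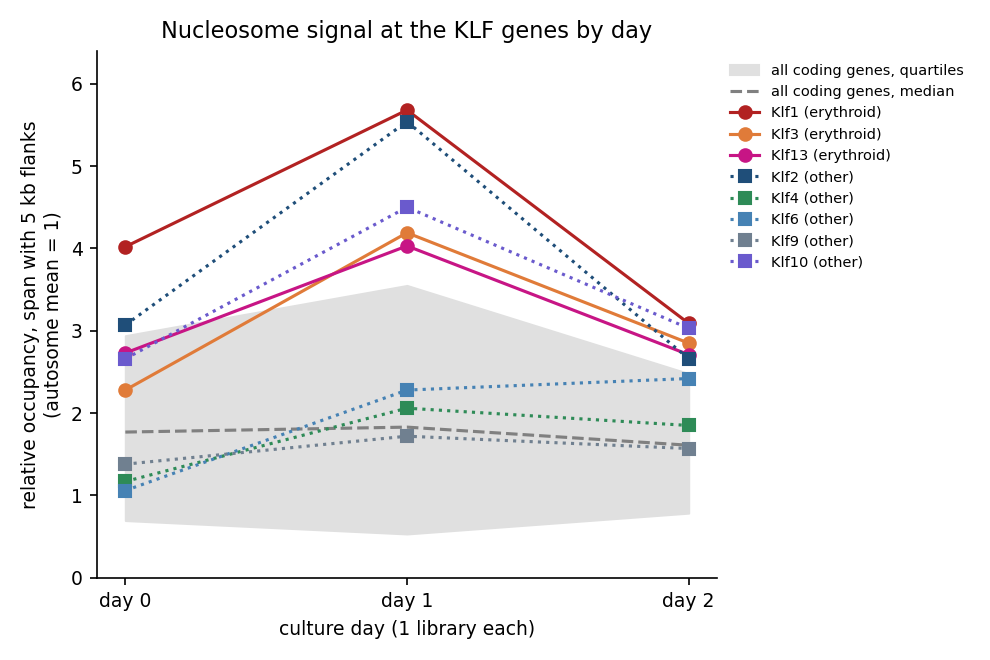
Relative occupancy (y axis, autosome mean 1) over each KLF gene with 5 kb flanks on the 3 culture days (x axis, 1 library each); circles with solid lines are erythroid members, squares with dotted lines the others, and the grey band and dashed line are the quartiles and median of all coding genes. Klf1 runs from 4.02 over 5.68 to 3.09, while Klf6 runs from 1.06 over 2.28 to 2.42.

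Klf1, the activator of globin genes, lies on chromosome 8 from 84901982 to 84905291 and is 3.31 kb long; the gene Dnase2a lies within 5 kb of it. Its relative occupancy was 4.02, 5.68 and 3.09 on days 0, 1 and 2, at percentiles 92.4, 95.1 and 88.5 of all genes. It held 60, 71 and 60 positions in 13.3 kb, or 4.51 per kb (3.44 to 5.80), 5.33 (4.17 to 6.73) and 4.51 (3.44 to 5.80). Days 0 and 2 had the same number of positions, which in the longer day 2 list is a lower density relative to the autosomes, 2.94 on day 0 and 2.47 on day 2. The mean summit was 10.7, 9.73 and 8.36 in day order, beside 7.80, 7.40 and 6.69 on the autosomes, and 30, 33 and 15 positions reached a summit value of 10. The highest summit of Klf1, 20.6 on day 0, lay in the gene 2964 bp from the start site and was at percentile 99.9 of autosomal positions. It was picked as the highest of 60 positions, which by itself favours a high percentile.

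Klf3, a repressor in erythroid cells, lies on chromosome 5 from 64803521 to 64832901 (29.4 kb), with the gene model Gm38457 within 5 kb. Its relative occupancy was 2.28, 4.19 and 2.85 on days 0, 1 and 2, from 138, 171 and 167 positions. The percentile among all genes was 61.5 on day 0 and 82.1 and 83.7 on days 1 and 2. Signal was lowest downstream of the gene, at 1.40, 2.92 and 2.20, against 2.39, 4.36 and 2.94 in the gene body. On day 0 the longest stretch without a centre ran for 2198 bp over the end of the gene, from 27585 to 29783 bp after the start site; the longest stretch was 1025 bp on day 1 and 840 bp on day 2.

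Klf13, a factor expressed in erythroid and lymphoid cells, lies on chromosome 7 from 63886351 to 63938915 on the minus strand and at 52.6 kb is the longest of the 8. Its relative occupancy was 2.73, 4.03 and 2.71, from 237, 277 and 268 positions, so days 0 and 2 were nearly equal. The level in the gene body was 2.79, 4.10 and 2.84. In the 5 kb upstream it was 3.15, 4.03 and 1.93, and in the 5 kb downstream 1.68, 3.27 and 2.09. The 1 kb after the start site held the largest summed summit value of any 1 kb bin of its span on day 1 (104) and day 2 (67.7).

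Among the other members, Klf2, a factor known from blood vessel lining and resting T cells, was close to Klf1 on day 1 and close to Klf13 on days 0 and 2. It lies on chromosome 8 from 72319062 to 72321654 (2.59 kb), and its relative occupancy was 3.07, 5.54 and 2.66 from 55, 65 and 53 positions. The gene body reached 8.01 on day 1, the highest value of any gene body or flank among the 8 genes, against 3.94 on day 0 and 3.64 on day 2. Klf10, which TGF-beta induces, lies on chromosome 15 from 38291464 to 38300711 and had 2.66, 4.50 and 3.03 from 73, 88 and 88 positions. Its level was thus above that of Klf3 on each day.

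Klf4, one of the factors used to reprogram cells to pluripotency, lies on chromosome 4 from 55527137 to 55532475 on the minus strand. Its relative occupancy was 1.17, 2.06 and 1.85, from 30, 39 and 50 positions. Its flanks differed in direction: upstream the level was 1.16, 2.81 and 2.56 with 9, 17 and 22 positions, and downstream it was 1.18, 0.716 and 0.626 with 10, 6 and 6. Klf6, a factor induced by growth signals, lies on chromosome 13 from 5861489 to 5870393. Its relative occupancy was 1.06, 2.28 and 2.42 from 33, 51 and 71 positions, and day 2 was above day 0 in all of its zones: 0.892, 2.32 and 2.92 upstream, 1.47, 2.51 and 2.21 in the body and 0.509, 1.84 and 2.29 downstream. Klf9, which responds to glucocorticoid and thyroid hormone, lies on chromosome 19 from 23141226 to 23168129 (26.9 kb). It was the flattest, at 1.38, 1.72 and 1.57 from 84, 80 and 102 positions, and had a stretch of 2523, 2280 and 1889 bp without a centre on the 3 days, each within 14857 to 19125 bp after the start site.

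Ordered by positions per kb, neighbouring genes differed beyond counting error at 1 place on days 0 and 1 and at none on day 2. On day 0 the order from the lowest was Klf6 (1.75 per kb), Klf4 (1.96), Klf9 (2.28), Klf3 (3.50), Klf13 (3.79), Klf10 (3.79), Klf2 (4.37) and Klf1 (4.51), and of the 7 neighbouring pairs only Klf9 and Klf3 differed (ratio 1.54, interval 1.17 to 2.04). On day 1 the break lay between Klf6 (2.70) and Klf3 (4.34), at a ratio of 1.61 (1.17 to 2.25). On day 2 the ratio of the highest, Klf10 (4.57), to the lowest, Klf9 (2.76), was 1.65 (1.23 to 2.22).

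The order went with the number of other coding genes in the surrounding 1 Mb. This number was 36 at Klf1, 26 at Klf2, 8 at Klf3 and Klf13, 5 at Klf10, 3 at Klf9, 1 at Klf4 and 0 at Klf6, where the median over all genes was 15.0. Across the 8 genes, which share libraries, its Spearman correlation with relative occupancy was 0.96, 0.83 and 0.68 on days 0, 1 and 2, and across all 21523 genes it was 0.43, 0.40 and 0.38. With the log2 change it was -0.29 (day 0 to 1), -0.91 (day 1 to 2) and -0.87 (day 0 to 2) over the 8 genes, and 0.20, -0.42 and -0.31 over all genes with a value, so the signs differed in the first step. The part of gene density in the differences between the members was not tested.

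The erythroid members together carried more positions per kb than the others on each day, and the margin was smallest on day 2. Klf1, Klf3 and Klf13 held 435, 519 and 495 positions in 115 kb and the other 5 held 275, 323 and 364 in 103 kb. This was 3.77 against 2.67 per kb on day 0 (ratio 1.41, interval 1.21 to 1.65), 4.50 against 3.14 on day 1 (1.44, 1.25 to 1.65) and 4.29 against 3.53 on day 2 (1.22, 1.06 to 1.40). In relative occupancy the groups overlapped on every day. The 3 erythroid genes lay between 2.28 and 4.02, 4.03 and 5.68, and 2.71 and 3.09 on days 0, 1 and 2, and the 5 others between 1.06 and 3.07, 1.72 and 5.54, and 1.57 and 3.03. The medians were 2.73 and 1.38 on day 0, 4.19 and 2.28 on day 1, and 2.85 and 2.42 on day 2. Klf2 and Klf10 lay within or just below the erythroid range, and Klf4, Klf6 and Klf9, the members with the fewest neighbouring genes, lay below it on every day. Without Klf9 the ratios of positions per kb were 1.31, 1.22 and 1.08, so the margin of day 2 was nearly gone with that 1 gene left out. Other omissions raised the ratios: without Klf10 they were 1.56, 1.60 and 1.30, and without Klf2 1.55, 1.58 and 1.25.

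From day 0 to day 1 the relative occupancy over the span was higher in 8 of 8 members, as in 61.2% of all genes. The log2 changes ran from 0.32 at Klf9 to 1.11 at Klf6 with a median of 0.78, beside 0.15 for all genes. Klf3 (0.87), Klf2 (0.85) and Klf4 (0.81) followed Klf6. Klf10 had 0.76, Klf13 0.56 and Klf1 0.50. Only Klf6 was 2 times higher or more, 1 of 8, against 2.98% of all genes, and none was 2 times lower (8.78%). The scaled ratio, which sets the members' position numbers on the later and earlier day against the same ratio over the autosomes, had an interval above 1 in 6 of 8 members, against 20.5% of genes. It was 1.92 (1.22 to 3.07) at Klf6, 1.54 (1.22 to 1.94) at Klf3 and 1.47 (1.03 to 2.11) at Klf1, while the intervals of Klf4 (1.62, 0.979 to 2.69) and Klf9 (1.18, 0.861 to 1.63) included 1.

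**Figure D2:**
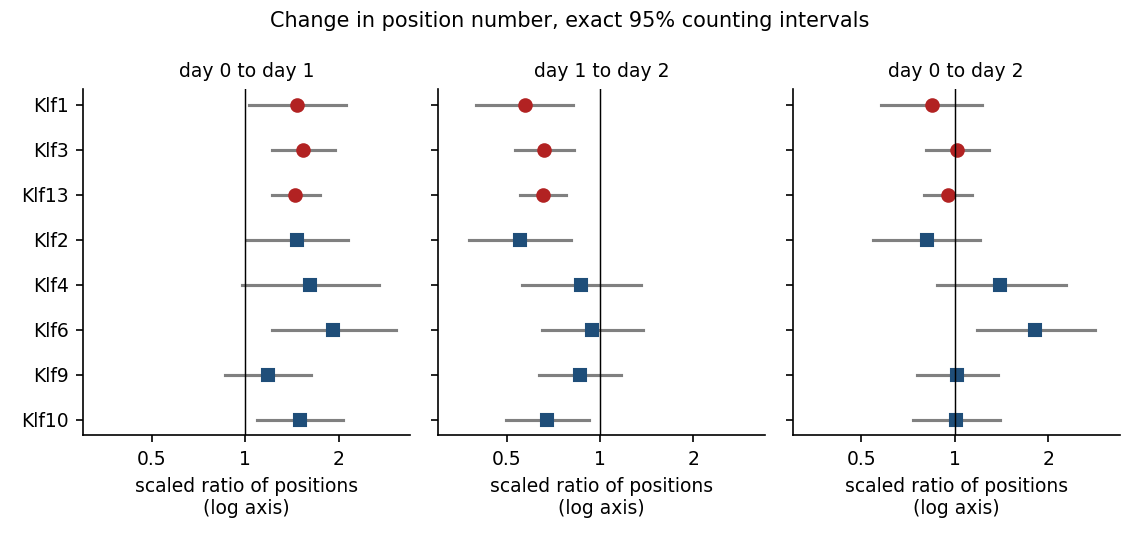
Scaled ratio of positions over each span with 5 kb flanks (log x axis, the autosomes being 1), for the 3 comparisons of days; points are the ratios, red circles erythroid and blue squares other members, and lines the exact 95% counting intervals. From day 1 to day 2 the intervals of Klf1, Klf2, Klf3, Klf10 and Klf13 lie below 1, and those of Klf4, Klf6 and Klf9 include it.

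From day 1 to day 2 Klf2 had the lowest log2 change at -1.06 (percentile 0.321 of all genes), followed by Klf1 at -0.88 (2.42), and Klf3, Klf13 and Klf10 had -0.55, -0.57 and -0.57. Klf4 (-0.15), Klf9 (-0.13) and Klf6 (0.08) stayed closer to 0. The median of the 8 was -0.56, and that of all genes -0.21. Klf2 was the 1 member at 2 times lower, against 0.665% of all genes, and none was 2 times higher, against 14.8%. The scaled ratio of position numbers had an interval below 1 in 5 of 8 members, against 40.1% of genes. It was 0.552 (0.377 to 0.806) at Klf2, 0.572 (0.399 to 0.819) at Klf1 and 0.943 (0.649 to 1.38) at Klf6.

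Between day 0 and day 2, 7 of 8 members had scaled ratios of position numbers whose intervals included 1. The exception was Klf6, with 33 and 71 positions, a ratio of 1.81 (1.18 to 2.83) and a log2 change in relative occupancy of 1.19 (percentile 91.0). Over the gene without flanks this change was 0.59. Klf6 was the 1 member at 2 times higher, against 11.0% of all genes, and 11.6% of genes had an interval above 1. No member was 2 times lower (1.97% of genes). The other log2 changes were 0.66 at Klf4, 0.32 at Klf3, 0.19 at Klf10, 0.18 at Klf9, -0.01 at Klf13, -0.21 at Klf2 and -0.38 at Klf1, beside a median of -0.10 over all genes. The comparisons share libraries: day 1 enters both steps, so a high day 1 level raises one change and lowers the next. The median level of all genes itself changed by -0.18 in log2 from day 1 to 2 and by -0.13 from day 0 to 2. Relative to it the changes were higher by those amounts, and Klf2 was at -0.88, not past 2 times.

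Within 500 bp of the gene ends the order of the days differed from gene to gene. Klf1 had 10, 10 and 7 positions and a relative occupancy of 5.36, 5.73 and 2.48, at percentiles 98.9, 92.0 and 68.8 of all genes. Klf2 had 12, 13 and 10 positions and 4.49, 7.25 and 3.71, and Klf13 had 9, 9 and 5 positions and 3.14, 5.32 and 2.08. Klf3 had 3, 7 and 8 positions and 1.21, 3.53 and 2.85. Klf4 had 1, 7 and 11 positions and 0.286, 2.62 and 2.97, the lowest level of any member and day being that of day 0. Klf6 had 3, 4 and 6 positions and 1.02, 1.88 and 1.97, Klf9 6, 9 and 6 positions and 1.88, 4.92 and 1.69, and Klf10 8, 9 and 10 positions and 2.95, 4.05 and 3.43. In numbers not scaled to the length of the lists, Klf3, Klf4, Klf6 and Klf10 thus had their most positions on day 2, and Klf1, Klf2 and Klf13 their fewest. In relative occupancy Klf3 and Klf10 were highest on day 1. All 8 were higher in relative occupancy on day 1 than on day 0, as were 73.2% of genes. From day 1 to day 2 only 2 were higher, where 25.5% of genes were.

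**Figure D3:**
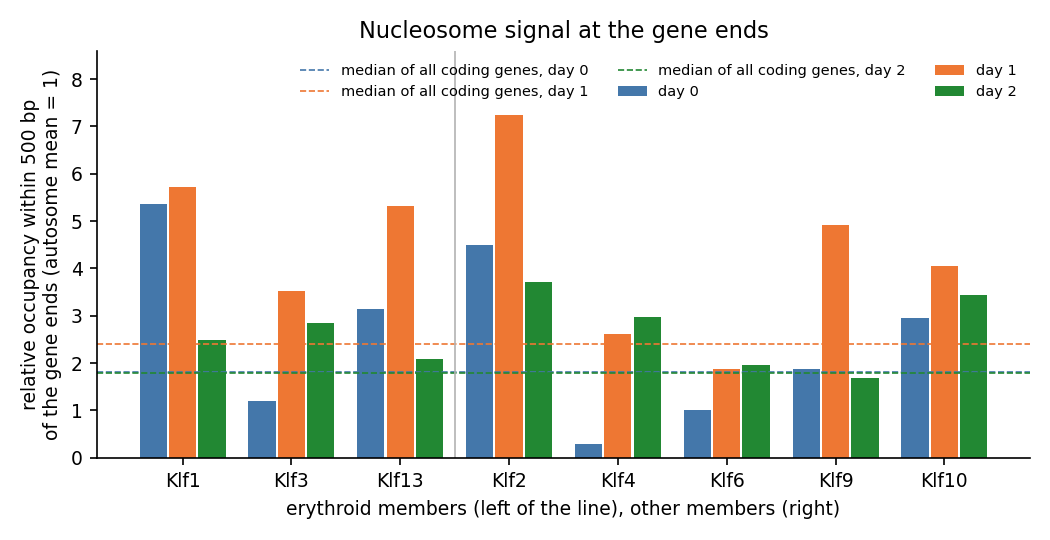
Relative occupancy (y axis, autosome mean 1) within 500 bp of both ends of each KLF gene; bars are the single library of each day and dashed lines the medians of all coding genes, which nearly coincide on days 0 and 2. Klf4 stands at 0.286 on day 0 and 2.97 on day 2, and Klf1 at 5.36 and 2.48.

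With so few positions, counting error was wide at the gene ends. The scaled ratio of position numbers from day 0 to day 2 was 9.26 at Klf4 (interval 1.35 to 399, from 1 position on day 0), 2.25 at Klf3 (0.539 to 13.1) and 0.589 at Klf1 (0.190 to 1.72), and only the interval of Klf4 excluded 1 among the 8. In relative occupancy Klf4 (log2 change 3.38) and Klf3 (1.24) were 2 times higher or more on day 2, 2 of 8 against 11.1% of genes, and Klf1 (-1.11) was 2 times lower, 1 of 8 against 9.14%. From day 0 to day 1 Klf4 (3.19), Klf3 (1.55) and Klf9 (1.39) were 2 times higher, 3 of 8 against 19.6%, and none was lower (5.55%). From day 1 to day 2 Klf9 (-1.54), Klf13 (-1.36) and Klf1 (-1.21) were 2 times lower, 3 of 8 against 19.1%, and none was higher (6.20%). With the median level of all gene ends as the base in place of the autosomes, a base that itself changed by 0.41 in log2 between days 0 and 1 and by -0.42 between days 1 and 2, calls differed. It left 2 members higher in the first step and 1 lower in the second, and turned the split over all genes from 3506 higher and 995 lower to 1655 and 1873, and from 1149 and 3533 to 2051 and 1220.

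The erythroid members did not differ from the others at the gene ends beyond counting error. Their 22, 26 and 20 positions in 6.01 kb gave 3.66, 4.33 and 3.33 per kb, against 30, 42 and 43 positions in 10.0 kb for the other 5. The ratios were 1.22 (0.672 to 2.19), 1.03 (0.607 to 1.72) and 0.775 (0.432 to 1.35), so a difference within these bounds was not detectable at this depth.

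At the start site itself, the distance between the nearest centres on each side was compared with that of 10370 genes with a promoter entry at their start, whose median was 588 bp on day 0, 560 bp on day 1 and 425 bp on day 2. Distances below are from the start site, negative upstream. Klf6 had a gap of similar size on each day, from -633 to 107 bp on day 0, from -388 to 162 bp on day 1 and from -398 to 322 bp on day 2, which is 740, 550 and 720 bp. Klf3 had gaps of 780, 410 and 580 bp, with the first centre in the gene at 90, 70 and 60 bp. These gaps lay between percentiles 39.9 and 66.9 of genes, so they were of common size.

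Positions came close to the start site of Klf4 and Klf2 on the later days. At Klf4 the nearest centres were at -331 and 632 bp on day 0 (963 bp), at -96 and 84 bp on day 1 (180 bp) and at -86 and 24 bp on day 2 (110 bp). These gaps lay at percentiles 64.2, 12.6 and 0.940 of genes, so the day 0 gap was also of common size. Klf2 had 285, 140 and 103 bp. Klf9 went the other way, with 105, 130 and 370 bp. The Klf1 gap was 288 bp on day 0, from -219 to 69 bp, 198 bp on day 1, from -79 to 119 bp, and 360 bp on day 2, from -326 to 34 bp. At Klf13 it was 220, 180 and 390 bp.

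**Figure D4:**
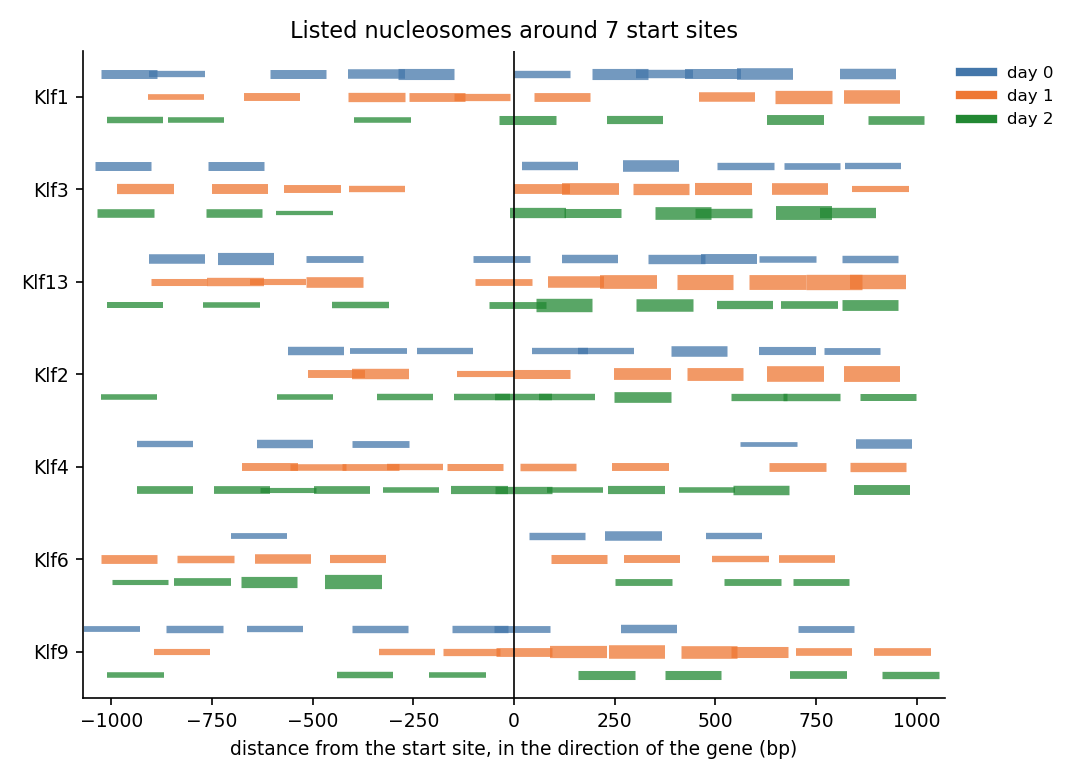
Listed nucleosomes around the start sites of 7 KLF genes, with distance from the start site in bp on the x axis and 1 line per day; each bar is a position of 140 bp and its thickness grows with the summit value. Klf3 and Klf6 have a stretch without positions before the start site on all days, and Klf4 has one across it on day 0 only.

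Set against the printed sequences, the same gaps show which letters lay under a position. At Klf1 the GATA and CCAAT matches lay inside a position on day 1, the one centred 79 bp upstream, and outside any on days 0 and 2. At Klf3 all 10 CACCC-type matches, and at Klf6 all 3 CACCC-type and 4 CCAAT matches, were outside positions on all 3 days. At Klf4 0 of 9 CACCC-type matches were inside a position on day 0, 9 on day 1 and 7 on day 2. At Klf13 the CACCC-type matches from -29 to -16 bp were inside a position on each day and those from -161 to -124 bp on none. Of the 300 bases from 250 before to 50 after the start, positions covered 0, 250 and 270 at Klf4, 152, 242 and 86 at Klf1, 140, 140 and 110 at Klf13, 30, 50 and 60 at Klf3 and 13, 0 and 0 at Klf6, where the median over the 10370 promoters was 60, 53 and 115. Across these promoters the gap was narrower at higher GC (Spearman -0.50, -0.59 and -0.47), and the gaps of Klf3 and Klf6 lay in promoters of 76.7% and 63.0% GC.

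Inside the gene, the first positions of several members were strong on day 1. At Klf13 centres at 284, 474, 654, 794 and 904 bp had summits of 16.8, 18.7, 18.4, 19.1 and 17.7, the highest reaching percentile 99.8 of autosomal positions. That summit is the highest of 277 positions in the span, so a percentile near the top follows from the choice. At Klf2 summits grew along the gene, with 14.0 at 319 bp, 15.5 at 499 bp, 19.5 at 699 bp and 19.8 at 889 bp. Klf9 had 14.6, 16.5 and 15.2 at 160, 305 and 485 bp. On day 2 Klf3 had its highest summit of 17.0 at 720 bp and Klf6 its highest of 17.5 at -398 bp, at the upstream edge of its gap.

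Of the 710 day 0 positions in the 8 spans, 24.2% (exact Clopper-Pearson interval 21.1 to 27.6%) had a day 1 centre within 20 bp, against 17.6% after shifting the list by 1000 bp in both directions, a background share at the same density. Of the 842 day 1 positions 192, or 22.8%, had a day 2 centre, against 18.4% after the shift, and of the day 0 positions 21.3% (18.3 to 24.5%) had one on day 2, against 19.2%, which lies inside the interval. On all autosomes the shares were 13.7%, 18.5% and 15.8%, against 10.5%, 13.8% and 12.2% after the shift. The highest share was at Klf1, where 38.3% (26.1 to 51.8%) of 60 day 0 positions had a day 1 partner, against 21.7% after the shift, yet 15.0% (7.10 to 26.6%) had one on day 2, against 25.8%. Klf2 followed with 30.9% (19.1 to 44.8%), against 21.8%, and Klf3 with 28.3% (20.9 to 36.5%) from day 0 to 1, against 16.3%. At Klf10 34.2% (23.5 to 46.3%) of day 0 positions had a partner on day 2, against 21.2%.

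**Figure D5:**
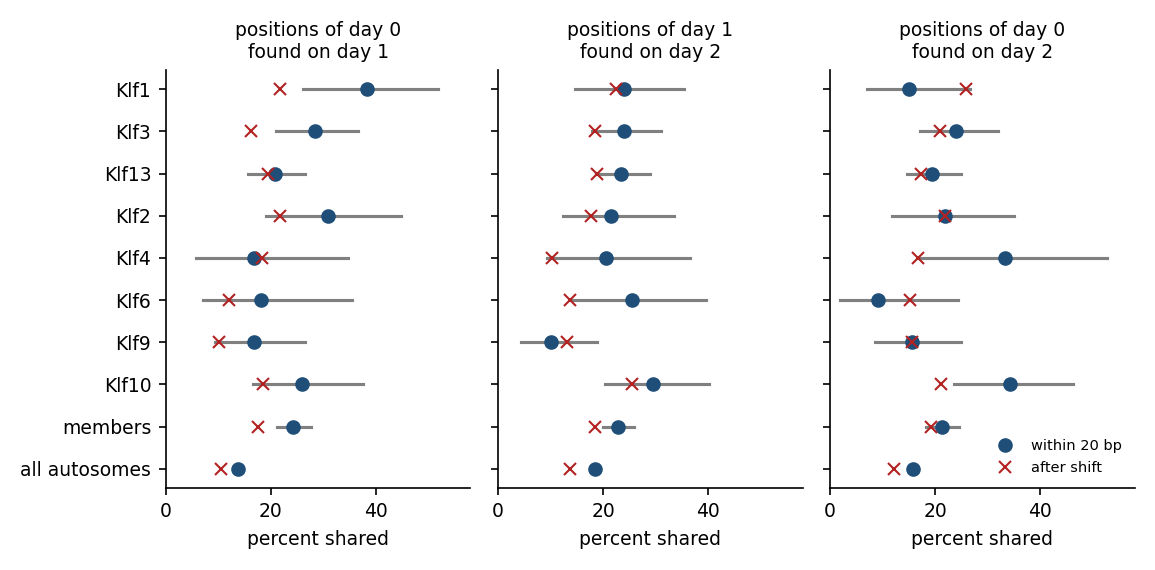
Percent of positions of one day (x axis) with a centre of another day within 20 bp, for each KLF gene with 5 kb flanks, the 8 genes together and all autosomes; circles are the shares with exact 95% intervals and crosses the mean share after shifts of 1000 bp. From day 0 to day 2 the circle and cross of the 8 genes together lie at 21.3% and 19.2%.

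A centre within 20 bp on both later days was found for 48 of the 710 day 0 positions, or 6.76% (5.03 to 8.86%), against 3.14% on all autosomes, where positions are sparser. Klf3 had 14 of these, Klf13 12, Klf10 9, Klf1 5, Klf2 4, Klf4 2, Klf9 2 and Klf6 0 of 33, where 0 allows a share of up to 10.6%. Only 4 had a summit value of 10 or more on each day. One lay in Klf1 at 2014, 1999 and 2019 bp after the start site, with summits of 12.9, 11.7 and 11.2, and one in Klf4 at 919, 904 and 914 bp, with 10.7, 10.4 and 11.3. The other 2 lay in Klf10 near 38300081 and 38300291 on day 0, close to the upper end of the gene.

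Taken over all members, the positions of the KLF genes had higher summits and slightly higher fuzziness than the autosomes, but not in each gene. Neighbouring centres were closer than the autosome median in 6 of 8 members on day 0, in 7 on day 1 and in 8 on day 2. The median distance between neighbouring centres was between 155 and 198 bp in Klf2 and between 168 and 200 bp in Klf1 over the days, and between 245 and 250 bp in Klf9, where the autosome median was 252, 235 and 260 bp. The exceptions were Klf4 (298 bp) and Klf6 (272 bp) on day 0 and Klf9 (245 bp) on day 1. Gene spans in general were denser than the autosomes, with medians of 2.77, 2.37 and 2.92 positions per kb against 1.54, 1.23 and 1.82. No share of all genes with closer centres, and no summit values over all gene spans, are given here. Comparisons with the autosomes in this paragraph therefore do not set the KLF genes apart from other genes. Summit values of 10 or more made up 20.3% (17.4 to 23.4%), 26.8% (23.9 to 30.0%) and 19.3% (16.7 to 22.1%) of the members' positions, against 15.0%, 13.3% and 9.06% on the autosomes. On day 0 the mean summits of Klf4 (7.19), Klf6 (7.28) and Klf9 (7.28) were below the autosome mean of 7.80, and 2 of 30, 3 of 33 and 8 of 84 of their positions reached 10. On day 1 Klf4 (7.39) and Klf9 (7.25) were below the autosome mean of 7.40, and on day 2 none was below. The median fuzziness score, the authors' measure of how far reads scatter around a centre, was 52.3, 55.5 and 53.3, against 51.1, 54.5 and 51.1. On day 0 it was highest at Klf1 (55.0) and lowest at Klf6 (49.7).

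The rest of the family and its partners were counted over the span in the same way. Of the 9 other KLF genes (Klf5, Klf7, Klf8, Klf11, Klf12, Klf14, Klf15, Klf16 and Klf17) none was 2 times higher on day 2 than on day 0 and 1 was lower, Klf17 with 67, 35 and 45 positions and a log2 change of -1.01. Their median relative occupancy was 1.32, 1.34 and 1.40, and their median log2 change from day 0 to day 1 was -0.26, where that of the 8 members was 0.78. The highest change in this list from day 0 to day 2 was 0.92 at Klf5, known from gut epithelium. The 9 Sp genes, whose products bind similar GC-rich sites, had a median of 2.44, 3.85 and 2.13; Sp8 had the highest log2 change from day 0 to day 2 at 0.91 and Sp5 the lowest at -0.58. The 5 corepressors used by KLF proteins (Ctbp1, Ctbp2, Sin3a, Hdac1 and Hdac2) had 2.53, 2.58 and 2.19, with Hdac2 at 0.41 and Hdac1 at -0.44. Of 11 genes known to be activated by Klf1, 10 were in the gene table by these symbols, and their median was 2.42, 3.82 and 2.64, with the heme enzyme gene Alas2 at 0.82 and the membrane gene Epb42 at -0.40. Alas2 lies on chromosome X, while its level is set against the autosomes. Whether its change is one of the whole chromosome was not tested. None of the Sp genes, corepressors or Klf1 targets was past 2 times in either direction from day 0 to day 2, where 11.0% of all genes were higher and 1.97% lower.

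The genes nearest to each erythroid member in the 3 log2 relative occupancies, among 18146 with at least 10 positions on each day, lay very close. Klf1 was nearest to Mybpc3 (4.06, 5.65 and 3.11; distance 0.0178) and Prex1 (4.02, 5.65 and 3.15; 0.0274), Klf3 to Mboat7 and Lyz1 (0.0280 and 0.0370) and Klf13 to Smco3 and Hsbp1l1 (0.0204 and 0.0268). Within a distance of 0.25 lay 1149 genes for Klf1, 775 for Klf13 and 166 for Klf3, so many genes share each pattern of levels.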

How the data were processed

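Each library has 1 list of positions, deposited by the authors with a summit value (a smoothed coverage signal), a fuzziness score and 2 p-values per position, per the file headers; the deposited p-values were not used. Bowtie2, bedtools and the build mm10 are named in the submitters' processing notes; no caller is given in the sources used here, and read totals are unknown. Each list belongs to 1 library, per the labels. Genes came from a RefSeq table of GRCm38.p6 (coding genes starting at 3 Mb or later), and strand from the RefSeq promoter entries. Windows were the gene with 5 kb flanks and 500 bp either side of the gene's ends. Changes over all genes used genes with a position on both days, and all 8 members had one. The size rule of 2 times is not a test. The members, lists and windows were chosen with earlier results of these data known. All 8 members are named; in each list the highest and lowest change over the span, and for each erythroid member the 2 genes nearest in level, were named. Alternatives were a summit minimum of 10, other flanks, windows and scalings, counting each position once, other distances for shared positions, and leaving out members. Window sums and intervals were tested on simulated data. The simulated centres were placed uniformly with no minimum distance, while real centres lie at least 100 bp apart. The simulation therefore cannot show how well the intervals cover the counting error of the real lists. Python 3.11.15, numpy 2.4.6, pandas 2.3.3, scipy 1.17.1 and matplotlib 3.10.9 were used. There are no replicates, so no replicate could be left out.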

Additional observations from a re-analysis of the deposited data

How the results depend on the processing

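With 1 library per day no result has a replicate check, and the summit minimum had the widest effect. When only summits of at least 10 were kept, the ratio of erythroid to other members was 2.41 on day 0 and 1.76 on day 2, the median log2 change of the members was 1.59 (day 0 to 1), -0.28 (1 to 2) and 1.13 (0 to 2), and 5, 1 and 5 members were 2 times higher and 2 lower from day 1 to 2. With this minimum Klf4, Klf6 and Klf9 kept only 2, 3 and 8 positions on day 0, so their changes rest on few positions. Except with scaling to the gene median, the counts of members in this section stand without a share of all genes. Such counts do not set the KLF genes apart from other genes. The relative density at the gene ends with the summit minimum was 4.34, 9.89 and 6.05 on the 3 days (2.11, 3.44 and 2.16 with all positions), and shared positions were 14.6%, 7.96% and 3.47%, against 4.86%, 3.98% and 3.12% after the shift. With each position counted once the median changes were 0.57 from day 0 to 1 and 0.02 from day 0 to 2, and 0 members were past 2 times in any comparison. Without flanks 2 members were higher from day 0 to 1 and 0 from day 0 to 2. With 10 kb flanks, or scaled to the gene median (median change -0.38), 0 were lower from day 1 to 2. Under the latter scaling only 21 of 21059 genes were 2 times lower, so 0 members is near the share of all genes. As a ratio of the groups' median positions per kb, day 0 gave 1.66, and without Klf9, an alternative chosen after seeing the data, the day 1 ratio was 1.22. Within 10 bp 14.9%, 12.5% and 13.4% of positions were shared (9.23%, 10.5% and 10.5% after the shift), and within 40 bp 41.5%, 41.1% and 38.7% (36.2%, 34.5% and 36.4%). No called value reversed. Of 120 values of single members 106 were classed as the same and 14 as moved. Counting intervals are for position numbers, while most of these values are changes in relative occupancy, so the classes are a rough guide. The small changes of Klf4, Klf6 and Klf9 from day 1 to 2 and of Klf13 from day 0 to 2 changed sign in at least 1 alternative. No paired analysis was possible because each group holds 1 library.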
